A study of Mus musculus with 28 samples.

Results

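The genes described here are 10 components of the Notch pathway, chosen by name and matched by gene symbol to the Ensembl identifiers of the counts: the receptors Notch1, Notch2 and Notch3, the ligands Jag1, Jag2 and Dll1, and the targets Hes1, Hey1, Heyl and Nrarp. All 10 were found among 56748 gene identifiers. They were followed in total RNA, depleted of ribosomal RNA, from 28 libraries of mouse mammary lines. Of these, 8 came from 4T1, a mammary cancer line, under the treatment label DOX. A further 10 came from HC11, an untransformed mammary epithelial line, under the label DOX + DIP, and 10 from HC11 under the label DOX alone. All 28 libraries therefore carry the DOX label, and no library without it was analysed here. The labels spell out neither abbreviation and name no construct. In work with HC11 cells, DIP commonly denotes dexamethasone, insulin and prolactin, the hormones that drive lactogenic differentiation. The study's title concerns PAPAS, an antisense transcript of ribosomal DNA, in that differentiation and in breast cancer. Neither a culture nor a batch is labelled, and the labels do not say whether libraries of a group carry the same construct. The p-values therefore measure only how these libraries vary, which may be technical in part and may mix unlabelled conditions. Each group is a single established line and stands for that line alone, and in bulk RNA fewer cells of a type and less RNA per cell cannot be told apart.

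Notch receptors are transmembrane proteins that are activated by ligands of the Jagged and Delta-like families on a neighbouring cell. Binding exposes the receptor to cleavage by ADAM proteases and then by gamma-secretase, which frees the intracellular domain. That domain enters the nucleus, joins the DNA-binding protein RBPJ and a Mastermind co-activator, and turns on genes of the HES and HEY repressor families and Nrarp, a feedback inhibitor that acts on the receptor's intracellular domain. In the mammary gland the pathway is known for its part in luminal cell fate.

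The letters that RBPJ and the repressors of the HES and HEY families are known to bind were searched near the start sites of the genes. RefSeq (build GRCm38.p6) gave windows from 250 bases before to 50 bases after the start for 7 of the 10 genes. Hes1, Hey1 and Heyl had no entry. The RBPJ core TGGGAA was searched on both strands, as were the other motifs, and was in 0 of the 7 members' windows and in 25.6% of 32851 windows overall. Among 46 other pathway genes with a window 17 held the core. The longer form GTGGGAA, which contains that core, was in 6.38% of all windows, in 0 of the 7 members' windows and in 8 of those 46 genes. The E-box CACGTG, a palindrome that repressors of the HEY family are known to bind, was in the Nrarp window among the members and in 7.15% of all windows. The N-box CACNAG, a HES-binding form, was in 5 of the 7 and in 42.5% of all windows. A gene was counted if any of its windows held the letters, whereas the overall shares count each window. Some genes have several windows, and Dll1 held the N-box in only 1 of its 2. The sequences below belong to Nrarp, the member with the largest fold change of any comparison, and to Lfng and Hey2, pathway genes that fell with DIP as Nrarp did. They were chosen after the values were seen. Capitals mark CACGTG for Nrarp and GTGGGAA, or its reverse complement, for Lfng and Hey2.
Nrarp, chr2:25180508-25180807, plus strand: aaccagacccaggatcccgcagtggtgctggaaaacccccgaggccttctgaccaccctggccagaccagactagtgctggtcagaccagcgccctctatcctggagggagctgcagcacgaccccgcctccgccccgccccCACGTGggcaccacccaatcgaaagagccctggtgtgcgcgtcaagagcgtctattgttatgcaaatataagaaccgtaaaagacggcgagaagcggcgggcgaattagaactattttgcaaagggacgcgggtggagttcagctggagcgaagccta
Lfng, chr5:140607091-140607390, plus strand: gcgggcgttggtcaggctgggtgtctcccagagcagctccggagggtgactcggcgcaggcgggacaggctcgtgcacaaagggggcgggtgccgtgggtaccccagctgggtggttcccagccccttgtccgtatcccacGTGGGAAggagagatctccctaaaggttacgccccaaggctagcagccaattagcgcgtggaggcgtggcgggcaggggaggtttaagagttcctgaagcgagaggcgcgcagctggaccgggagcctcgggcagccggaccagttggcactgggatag
Hey2, chr10:30842734-30843033, minus strand: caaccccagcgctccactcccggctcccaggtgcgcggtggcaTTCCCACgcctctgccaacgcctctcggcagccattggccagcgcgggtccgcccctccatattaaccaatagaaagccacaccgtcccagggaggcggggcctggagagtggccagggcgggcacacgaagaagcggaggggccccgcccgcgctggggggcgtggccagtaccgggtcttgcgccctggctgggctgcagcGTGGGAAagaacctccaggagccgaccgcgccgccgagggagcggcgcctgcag
In Nrarp the E-box began 108 bases before the start. In Lfng the longer RBPJ letters began 109 bases before the start and overlapped a CACGTG. A further match of the core alone, not marked, began 135 bases before the start of Lfng. Hey2 held the RBPJ letters at a pair of places, 207 bases before the start on the opposite strand and 4 bases before it, running across it. A match of letters is a description, and no binding was measured.

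Depth ran between 134117581 and 222065843 counts per library. A count of 0 in these libraries allows at most 0.0135 to 0.0224 CPM (counts per 1000000 counts of the library, at 3 counts), a limit for counting error only. That limit rests on unscaled library totals. All other CPM values use totals scaled by normalisation (TMM) factors, so the limit is approximate beside them. HC11 DOX plus DIP libraries 8 and 10 stood apart. Their mean log2 CPM over 6 glucocorticoid response genes was 3.82 and 3.83, against 5.78 to 7.03 in the other 8 libraries with DIP and 2.88 to 3.25 in HC11 DOX. Results with DIP are given with and without them where that matters. Some libraries of a group were more alike than others: over all expressed genes 4T1 libraries 2 and 4 and 5 and 8 were each other's nearest. So were DIP libraries 3 and 5, 4 and 6, 7 and 9, and 8 and 10, and HC11 DOX libraries 4 and 6, 7 and 9, and 8 and 10. The numbers follow series order within a group, and the pairs 4 and 6, 7 and 9, and 8 and 10 recurred in both HC11 groups. The labels do not say what such pairs share. The tests took every library of a group as independent and matched none across groups. Epithelial markers (Epcam, Cdh1, Krt5, Krt14, Krt8 and Krt18) summed to 2134 to 3038 CPM in 4T1, 444 to 2211 CPM with DIP and 3446 to 7996 CPM in HC11 DOX, and each of the 6 was detected in every group. The sums hide opposite directions. In 4T1 against HC11 DOX, Krt5, Krt14 and Epcam were called lower (log2 fold change -6.65, -3.01 and -1.41). Krt8 and Krt18 were called higher there (2.92 and 5.85), and Cdh1 did not pass. With DIP Cdh1, Krt5 and Krt14 were called lower and Krt18 higher, and Epcam and Krt8 did not pass. The endothelial genes Cdh5, Kdr, Tek and Emcn, the immune genes Ptprc and Cd3e and the adipocyte genes Adipoq, Plin1 and Cidec averaged under 0.1 CPM in all 3 groups. Cd3e and Cidec had 0 counts in 4T1. Other immune markers were detected: Cd68 averaged 5.35 ± 2.12 CPM in 4T1, 6.05 ± 3.46 CPM with DIP and 2.34 ± 0.463 CPM in HC11 DOX. Csf1r averaged 11.9 ± 1.26 CPM in 4T1, 9.69 ± 3.02 CPM with DIP and 8.05 ± 0.943 CPM in HC11 DOX. Against HC11 DOX, Cd68 was called higher with DIP (edgeR adjusted p = 1.54e-04) and in 4T1 (9.72e-06), and Csf1r in 4T1 (6.62e-06). The sum of 5 fibroblast genes (Pdgfra, Pdgfrb, Dcn, Lum and Col1a1) was 9.05 to 14.5 CPM in 4T1, 20.8 to 264 CPM with DIP and 32.8 to 91.8 CPM in HC11 DOX. In 4T1 most of it was Pdgfra (9.48 ± 1.69 CPM), which did not pass against HC11 DOX, while the others were called lower. With DIP Pdgfrb, Dcn and Lum were called higher, and Pdgfra and Col1a1 did not pass. The sum of 4 cycling-cell genes (Mki67, Top2a, Aurkb and Ccnb1) was 1222 to 1554 CPM in 4T1, 13.0 to 122 CPM with DIP and 523 to 1222 CPM in HC11 DOX. The part of these in the results below was not tested.

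Set per length, as CPM per kilobase of exon, the pathway was weighted differently in each line. In 4T1 the highest members were the targets Hes1 (14.3 ± 1.49, SD, n = 8) and Nrarp (12.5 ± 1.40), ahead of the receptor Notch2 (5.41 ± 0.870) and the ligand Jag1 (4.82 ± 1.20). In HC11 with DIP the ligand Jag2 stood highest (23.2 ± 5.49, n = 10), ahead of Notch2 (7.12 ± 1.36), Hes1 (7.01 ± 1.79) and Notch1 (4.54 ± 1.94). In HC11 DOX it was again Jag2 (31.0 ± 6.10, n = 10), ahead of Notch1 (11.4 ± 2.40), Notch2 (8.67 ± 1.47) and Hes1 (7.21 ± 1.55). Within each of these lists the neighbours Notch2 and Jag1 in 4T1, Notch2 and Hes1 with DIP, and Notch2 and Hes1 in HC11 DOX lay closer than their SDs. With the longest transcript as length Hes1 stood above Notch2 in both HC11 groups. The lower members were Jag2 (3.18), Notch1 (2.44), Dll1 (1.19), Hey1 (0.376) and Notch3 (0.0130) in 4T1. With DIP they were Dll1 (3.29), Jag1 (2.11), Hey1 (0.757), Nrarp (0.241) and Notch3 (0.175). In HC11 DOX they were Dll1 (4.73), Hey1 (3.93), Jag1 (3.16), Nrarp (0.935) and Notch3 (0.436 CPM per kilobase). By group mean Notch3 was the lowest of the 9 in all 3 groups. With DIP, Notch3 and Nrarp lay closer than their SDs. Nrarp was the lower of them in DIP libraries 1, 2 and 3 and in HC11 DOX library 6. Heyl, a HEY family target, had 2 counts in all, both in HC11 DOX library 2, and 0 in the other 27 libraries.

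**Figure D1:**
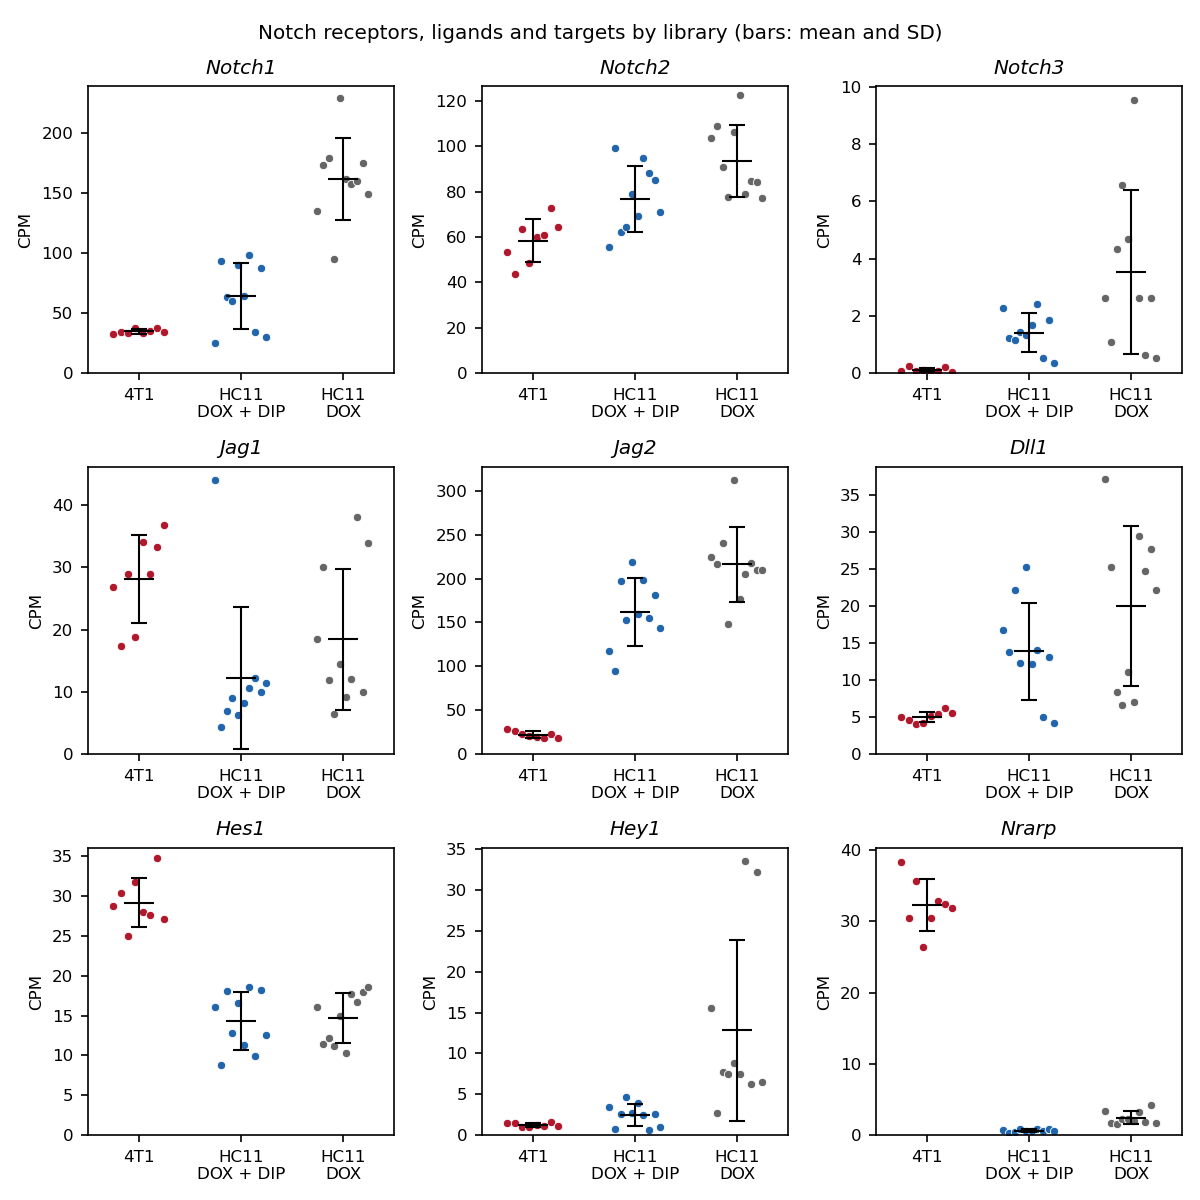
CPM of each member except Heyl in every library, with 4T1, HC11 DOX + DIP and HC11 DOX from left to right, and the mean and SD as bars. Nrarp in 4T1 lay at 26.3 to 38.4 CPM, above every HC11 library, while Notch1 and Jag2 in 4T1 lay below every HC11 DOX library.

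The comparison of HC11 with and without DIP asks how Notch components differ when DIP is added to DOX. Expression fell at 5 of the 9 members tested (Notch1, Notch3, Jag2, Hey1 and Nrarp), none rose, and Notch2, Jag1, Dll1 and Hes1 did not pass the test. Of all 23829 genes tested 45.5% were called, 24.5% higher and 21.0% lower. The median log2 fold change was -0.57 over the 9 members and 0.06 over all genes. Without DIP libraries 8 and 10 the count was 4 of 9, against 52.4% of all genes.

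Among the receptors, Notch1 had 25.4, 63.5 and 98.7 CPM (lowest, median and highest) with DIP, against 95.4, 161 and 229 CPM in HC11 DOX. Only the lowest library without DIP reached into the range of those with DIP. The log2 fold change of Notch1 was -1.30 ± 0.23 (SE, edgeR adjusted p = 9.94e-05), and -1.13 without DIP libraries 8 and 10, which with library 1 were the 3 lowest. Notch2, a close paralogue, had 55.4, 74.9 and 99.1 CPM with DIP, against 77.1, 87.8 and 123 CPM in HC11 DOX. Its groups overlapped broadly and its log2 fold change of -0.26 ± 0.12 did not pass the test (edgeR adjusted p = 0.0871, and 0.0380 without DIP library 2). Notch3 was a minor receptor, with 0.338, 1.37 and 2.40 CPM with DIP, against 0.531, 2.63 and 9.55 CPM in HC11 DOX. Its log2 fold change was -1.29 ± 0.45 (edgeR adjusted p = 0.0238). That call rested on few libraries: the adjusted p was 0.0638 without HC11 DOX library 6, the highest, 0.0501 without DIP libraries 8 and 10, and 0.120 by limma voom.

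The balance of the receptors differed with DIP. Notch1 made up 36.9 ± 9.15% of the reads per kilobase of the 3 receptors with DIP, against 55.3 ± 5.80% in HC11 DOX (SD, n = 10 each). Notch2 made up 61.5 ± 9.14% with DIP and 42.5 ± 4.71% in HC11 DOX. The lowest share of Notch2 with DIP was 53.0%, above its highest share in HC11 DOX, 49.5%. For Notch1 the share ranges of the groups touched, at 22.4 to 45.9% with DIP and 45.6 to 60.7% in HC11 DOX. The shares depend on the length taken for Notch1, whose annotated exons cover 14232 bases and whose longest transcript has 9488. With the longest transcript Notch1 and Notch2 held 45.8% and 52.9% with DIP and 64.3% and 34.0% in HC11 DOX, in the same order in each group. The antisense gene 0610009E02Rik shares 7.50% of the Notch1 exon bases, and its count was 15.7 to 36.3% of that of Notch1 over the 28 libraries.

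Among the ligands, Jag2 had 95.0, 157 and 219 CPM with DIP, against 149, 213 and 312 CPM in HC11 DOX. The groups overlapped, and the log2 fold change of -0.40 ± 0.14 was small but called (edgeR adjusted p = 0.0249, and at most 0.0462 on leaving out any library in turn). Jag1, which encodes the other Jagged ligand, had 4.36, 9.48 and 44.0 CPM with DIP, against 6.48, 13.2 and 38.1 CPM in HC11 DOX. Its spread was set by few libraries. DIP library 1 held the 44.0 CPM while the other 9 lay at or below 12.2 CPM, and in HC11 DOX libraries 2, 8 and 10 held 30.0, 38.1 and 33.8 CPM while the other 7 lay at or below 18.5 CPM. Jag1 did not pass the test at -0.57 ± 0.39 (edgeR adjusted p = 0.245). Without DIP library 1 it did, at -1.05 (adjusted p = 0.00873).

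Dll1, a Delta-like ligand, had 4.17, 13.4 and 25.2 CPM with DIP, against 6.62, 23.4 and 37.1 CPM in HC11 DOX, and did not pass the test at -0.50 ± 0.35 (edgeR adjusted p = 0.251). DIP libraries 8 and 10 were its lowest, and after they were left out the log2 fold change was -0.28 (adjusted p = 0.468). HC11 DOX libraries fell apart for this gene: libraries 3, 4, 5 and 6 had 6.62 to 11.1 CPM and the other 6 had 22.2 to 37.1 CPM. For Notch3 the order was the other way round, with 4.35 to 9.55 CPM in libraries 3 to 6 and 0.531 to 2.63 CPM in the other 6. The labels give nothing by which these libraries differ. The gene A930024N18Rik, on the other strand, covers 20.5% of the Dll1 exon bases, and its reads were not analysed here.

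The targets split. Nrarp had 0.325, 0.625 and 0.832 CPM with DIP, against 1.58, 2.10 and 4.20 CPM in HC11 DOX. Every library with DIP lay below every library without it, the sole member of which this was so, as it was of 11.4% of all genes tested. The log2 fold change was -1.94 ± 0.22 (edgeR adjusted p = 4.08e-07), and -1.90 without DIP libraries 8 and 10. Hey1, a repressor of the HEY family, had 0.612, 2.59 and 4.70 CPM with DIP, against 2.70, 7.62 and 33.5 CPM in HC11 DOX. HC11 DOX libraries 7 and 9 had 33.5 and 32.3 CPM and library 1 had 15.6 CPM, while the other 7 lay at or below 8.76 CPM. The log2 fold change of Hey1 was -2.36 ± 0.46 (edgeR adjusted p = 2.58e-04). Without HC11 DOX libraries 7 and 9 it was -1.65 (adjusted p = 0.00152), so this pair moved the fold by over 1.5 times but not the call. Hes1, a widely used readout of the pathway, had 8.78, 14.5 and 18.6 CPM with DIP, against 10.3, 15.5 and 18.6 CPM in HC11 DOX. The groups overlapped almost wholly, and the log2 fold change was -0.02 ± 0.16 (edgeR adjusted p = 0.930).

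**Figure D2:**
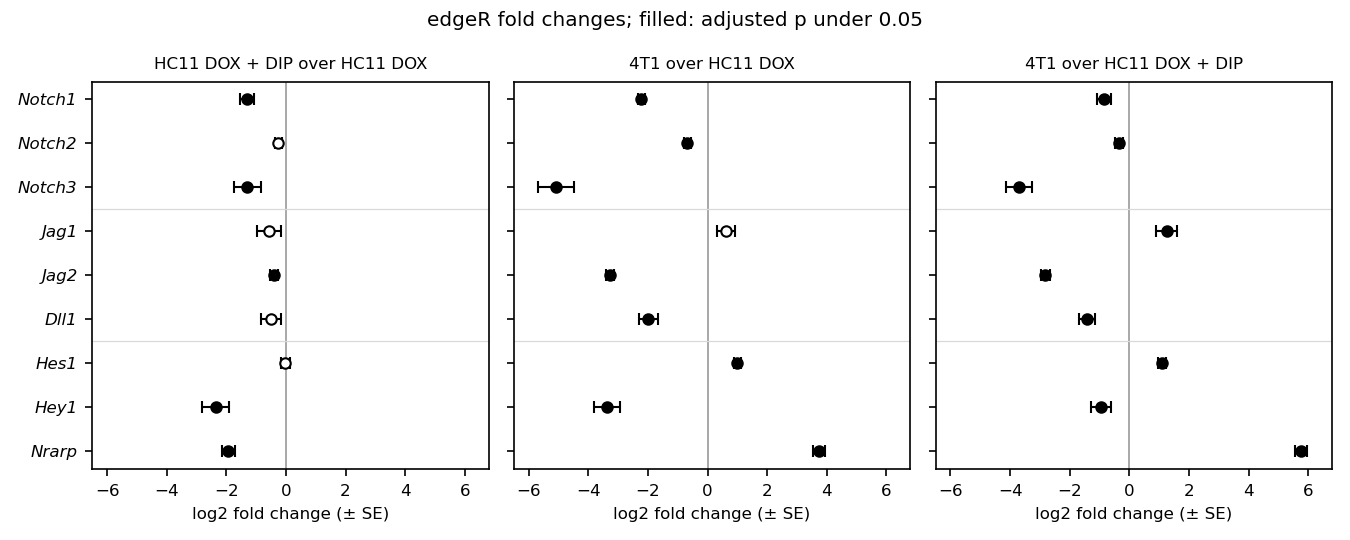
Log2 fold changes of 9 members with their standard errors in the 3 comparisons, with filled points at an edgeR adjusted p under 0.05. With DIP the called members all lie left of 0, while in 4T1 Hes1 and Nrarp lie right of 0 and the receptors, Jag2, Dll1 and Hey1 left of it.

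The comparison of 4T1 with HC11, both under the DOX label, asks how the cancer line differs from the untransformed one. In 4T1 all 3 receptors, the ligands Jag2 and Dll1 and the target Hey1 were lower, and the targets Hes1 and Nrarp were higher. Of the 9 members tested 8 passed, 2 higher and 6 lower, and Jag1 did not. The lines differed at 69.9% of all 23875 genes, 34.3% called higher and 35.6% lower. All 8 called members had groups that did not overlap, as 36.8% of all genes had. Without 4T1 libraries 1 and 2 the count was again 8, against 66.4% of all genes. These libraries were not each other's nearest, and the labels do not set them apart. The median log2 fold change of the 9 was -1.99, and -0.01 over all genes.

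Notch1 had 32.9, 34.0 and 38.0 CPM in 4T1, against 95.4, 161 and 229 CPM in HC11 DOX. The 4T1 libraries were close to each other, and the log2 fold change was -2.22 ± 0.12 (edgeR adjusted p = 2.34e-12), 4.67-fold lower. Notch2 had 43.7, 60.4 and 72.6 CPM in 4T1, against 77.1, 87.8 and 123 CPM in HC11 DOX, a log2 fold change of -0.68 ± 0.12 (edgeR adjusted p = 2.94e-05). Notch3 had 0.0341, 0.0701 and 0.252 CPM in 4T1, against 0.531, 2.63 and 9.55 CPM in HC11 DOX, and was 34.0-fold lower (log2 fold change -5.09 ± 0.62, edgeR adjusted p = 3.93e-07). The 4T1 level of Notch3 rested on 137 counts over 8 libraries. On average it was not above that of Gm17276, an antisense gene that shares 6.03% of its exon bases and averaged 0.131 ± 0.0386 CPM there, so the fold is uncertain. In 4T1 Notch2 made up 68.5 ± 3.77% of the receptors and Notch1 31.4 ± 3.69% (SD, n = 8), against 42.5% and 55.3% in HC11 DOX, and the shares of each did not overlap between these groups.

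Jag2 had 18.3, 21.8 and 28.8 CPM in 4T1, against 149, 213 and 312 CPM in HC11 DOX. It was 9.78-fold lower (log2 fold change -3.29 ± 0.13, edgeR adjusted p = 3.59e-14), the most significant of the members. Dll1 had 4.04, 5.09 and 6.15 CPM in 4T1, against 6.62, 23.4 and 37.1 CPM in HC11 DOX, with a log2 fold change of -1.99 ± 0.31 (edgeR adjusted p = 1.08e-05). Jag1 had 17.3, 28.9 and 36.8 CPM in 4T1, against 6.48, 13.2 and 38.1 CPM in HC11 DOX. Most 4T1 libraries lay above most HC11 libraries, but HC11 DOX libraries 1, 2 and 10 lay in the 4T1 range and library 8 above it. The test was not passed at 0.62 ± 0.30 (edgeR adjusted p = 0.0703). It was passed without HC11 DOX library 2, 8 or 10 or 4T1 library 2 (adjusted p = 0.0403, 0.0178, 0.0280 and 0.0484) and by limma voom (0.0185). Jag1 held 51.8 ± 7.96% of the reads per kilobase of the 3 ligands in 4T1 (n = 8) and 7.86 ± 4.20% in HC11 DOX (n = 10). Jag2 held 35.2 ± 7.78% in 4T1 and 80.3 ± 7.92% in HC11 DOX, while the share of Dll1 was 13.0 ± 1.38% and 11.8 ± 5.71%.

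**Figure D3:**
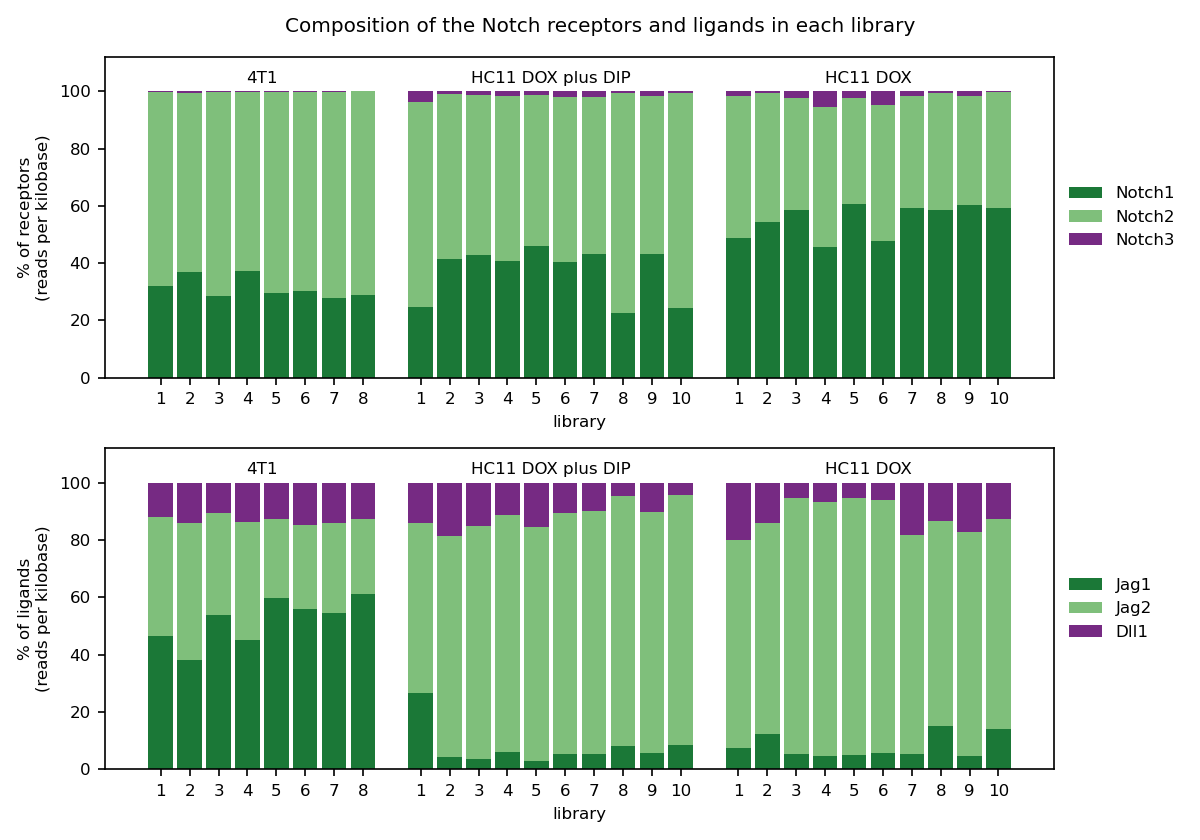
Share of Notch1, Notch2 and Notch3 (top) and of Jag1, Jag2 and Dll1 (bottom) in the summed reads per kilobase of each library, with 4T1, HC11 DOX plus DIP and HC11 DOX from left to right. Jag1 holds 38.1 to 61.3% of the ligands in 4T1 and at most 15.0% in HC11 DOX, and DIP library 1 stands apart from the other libraries with DIP at 26.6%.

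Hes1 had 25.0, 28.4 and 34.8 CPM in 4T1, against 10.3, 15.5 and 18.6 CPM in HC11 DOX, 1.98-fold higher (log2 fold change 0.99 ± 0.11, edgeR adjusted p = 2.13e-07). Hey1 had 0.951, 1.17 and 1.56 CPM in 4T1, against 2.70, 7.62 and 33.5 CPM in HC11 DOX, a log2 fold change of -3.39 ± 0.43 (edgeR adjusted p = 8.06e-07), and -2.78 without HC11 DOX libraries 7 and 9. Nrarp, whose promoter is printed above, had 26.3, 32.1 and 38.4 CPM in 4T1, against 1.58, 2.10 and 4.20 CPM in HC11 DOX. It was 13.4-fold higher (log2 fold change 3.74 ± 0.19, edgeR adjusted p = 1.08e-12), the widest rise of the members. The targets of the pathway therefore stood on both sides of 0 in 4T1, with the HES and the ankyrin-repeat target higher and the HEY target lower.

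Counts of Nrarp cannot be separated from those of a gene on the other strand. The antisense gene Gm38287 shares 2051 bases with Nrarp, 79.4% of the Nrarp exons, and had 68.5 to 90.7% of the Nrarp count in every library. It averaged 25.1 ± 2.39 CPM in 4T1, 0.512 ± 0.150 CPM with DIP and 1.84 ± 0.746 CPM in HC11 DOX. The strand setting of the counting is not given in the sources used here, so which strand the reads came from cannot be told apart.

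**Figure D4:**
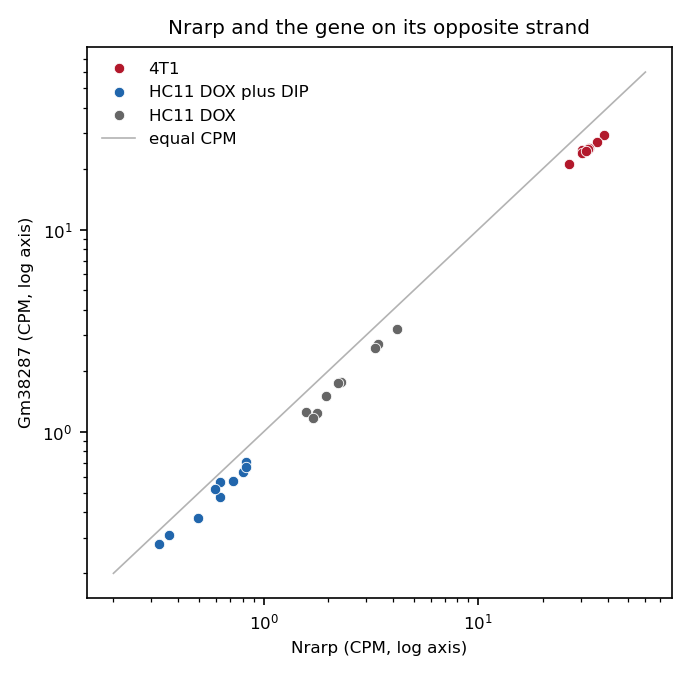
CPM of Gm38287 against CPM of Nrarp in the 28 libraries, both on log axes, with the line of equal CPM. The libraries keep to a line just under it, from 0.325 to 38.4 CPM of Nrarp, with 4T1 at the top, HC11 DOX in the middle and HC11 DOX plus DIP at the bottom.

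The last pair of groups, 4T1 under DOX and HC11 under DOX plus DIP, differs in line and in treatment label, which cannot be told apart. It shares libraries with both comparisons above and closes the order of the groups. All 9 members passed, 3 higher and 6 lower in 4T1, where 73.8% of 24132 genes did, 35.9% higher and 37.9% lower. The groups did not overlap for 4 members and 39.6% of all genes. All 9 also passed without DIP libraries 8 and 10, where 79.6% of genes did, and without 4T1 libraries 1 and 2, where 70.4% did. Nrarp was 53.9-fold higher in 4T1 (log2 fold change 5.75 ± 0.19, edgeR adjusted p = 6.47e-15), so that its order was 4T1, HC11 DOX and HC11 DOX plus DIP with no overlap at either step. Hes1 was higher by 1.09 ± 0.14 on the log2 scale (edgeR adjusted p = 9.58e-07), and the HC11 groups did not differ beyond their spread. Jag1 was higher by 1.25 ± 0.35 (edgeR adjusted p = 0.00322), with overlap through DIP library 1. Jag2 was 7.04-fold lower (log2 fold change -2.81 ± 0.16, edgeR adjusted p = 5.75e-12). For Notch1 the log2 fold change was -0.84 ± 0.23 (edgeR adjusted p = 0.00321), and -1.08 without DIP libraries 8 and 10. DIP libraries 1, 8 and 10 had 25.4, 33.9 and 30.4 CPM of Notch1 and lay in or below the 4T1 range, while the other 7 lay above it. Notch2 (-0.34 ± 0.13, edgeR adjusted p = 0.0225) lost its call without 4T1 library 2 or 4 (adjusted p = 0.0570 and 0.0540). Hey1 had a log2 fold change of -0.96 ± 0.34 (edgeR adjusted p = 0.0165, and 0.101 by limma voom).

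Other genes of the pathway, 58 in 6 role groups, moved in both directions. With DIP 19 of 51 tested rose and 11 fell (median log2 fold change 0.04, against 0.06 over all genes), where 24.5% of all genes were called higher and 21.0% lower. In 4T1 against HC11 DOX 14 of 52 rose and 23 fell (median -0.13, against -0.01), where 34.3% of all genes were called higher and 35.6% lower. In the role groups below, the share of all genes called in either direction was 45.5% with DIP and 69.9% in 4T1, and a count near it is no result about the group. Without DIP libraries 8 and 10 the counts with DIP were 20 and 10, and scaled by library totals alone those in 4T1 were 7 and 30. Without HC11 DOX libraries 7 and 9 the counts were 16 and 9 with DIP, and 10 and 24 of 50 in 4T1. These lists were chosen by role with earlier results of the data known.

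Of the other receptors and ligands, 3 of 5 were tested with DIP and 0 passed by edgeR, DESeq2 or limma voom. At an unadjusted p under 0.05 the count was 0 by edgeR and 1 by each of the other tools. In 4T1 the Delta-like ligand Dll4 averaged 2.43 ± 0.445 CPM, against 0.129 ± 0.0626 CPM in HC11 DOX, a log2 fold change of 4.22 ± 0.29 (edgeR adjusted p = 1.18e-10). Dll4 is typical of endothelial cells, whose markers Cdh5, Kdr, Tek and Emcn were near 0 in all groups. With Pecam1 they summed to 0.113 to 0.321 CPM in 4T1, 0.276 to 1.58 CPM in HC11 with DIP and 3.32 to 5.36 CPM in HC11 DOX. Their part in the Dll4 level was not tested. The receptor gene Notch4 (-1.08 ± 0.32) and Dlk2, a Delta-like relative (-0.72 ± 0.28), were lower in 4T1. Dlk2 lost its call without HC11 DOX library 2, 8 or 10 or 4T1 library 5 or 6 (adjusted p = 0.0543, 0.0533, 0.0559, 0.0551 and 0.0554).

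Of the 10 genes of receptor cleavage, 5 rose and 1 fell with DIP (45.5% of all genes called), and 4 rose and 3 fell in 4T1 against HC11 DOX (69.9%). The 4T1 balance turned with the processing, to 1 higher and 5 lower by library totals and to 2 and 5 without HC11 DOX libraries 7 and 9. The counts with DIP were 6 and 1 without DIP libraries 8 and 10, and 4 and 0 without HC11 DOX libraries 7 and 9. Psen2, a catalytic subunit of gamma-secretase, averaged 22.0 ± 1.97 CPM with DIP, against 9.81 ± 1.31 CPM in HC11 DOX (log2 fold change 1.19 ± 0.09, edgeR adjusted p = 7.32e-10), and also rose in 4T1 (0.83 ± 0.10). Furin, the convertase that cuts the receptor precursor, and Psenen, a further gamma-secretase subunit, rose with DIP by 0.53 ± 0.17 and 0.52 ± 0.11 on the log2 scale. The scaffold subunits Aph1b (-1.68 ± 0.09) and Aph1c (-2.52 ± 0.15) were lower in 4T1, although these paralogues are nearly alike and their separate counts are uncertain.

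Of 5 glycosylation genes, 2 of the 4 tested fell with DIP and 0 rose, and in 4T1 against HC11 DOX 1 rose and 3 fell, both counts near the shares of all genes called (45.5% and 69.9%). Lfng, which encodes the Lunatic fringe glycosyltransferase that alters which ligands a receptor answers to, averaged 10.5 ± 5.13 CPM with DIP, against 49.9 ± 12.4 CPM in HC11 DOX, without overlap. Its log2 fold change with DIP was -2.23 ± 0.33 (edgeR adjusted p = 1.16e-05). In 4T1 Lfng averaged 12.3 ± 2.98 CPM (log2 fold change -2.02 ± 0.16 against HC11 DOX, edgeR adjusted p = 5.11e-10). Pofut1, which adds the fucose that fringe extends, fell by 0.36 on the log2 scale with DIP. Rfng, the Radical fringe gene, fell by 1.97 in 4T1, and Mfng, the Manic fringe gene, averaged 0.120 ± 0.0410 CPM in 4T1, against 0.00601 ± 0.0133 CPM in HC11 DOX, under the level of 3 counts there.

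The 13 genes of endocytosis and turnover held the widest differences, with 8 higher and 3 lower with DIP and 3 higher and 4 lower in 4T1 against HC11 DOX. Of all genes 24.5% were called higher and 21.0% lower with DIP, and 34.3% and 35.6% in 4T1. By library totals the 4T1 counts were 2 and 6. The counts with DIP were 7 and 2 without DIP libraries 8 and 10. They were 7 and 3 by library totals, and the same without HC11 DOX libraries 7 and 9. Neurl1a and Neurl1b encode Neuralized ubiquitin ligases, which in the fly promote endocytosis of Delta. Neurl1b averaged 2.74 ± 1.37 CPM with DIP, against 25.2 ± 12.1 CPM in HC11 DOX (log2 fold change -3.18 ± 0.37, edgeR adjusted p = 5.40e-07). Neurl1a fell by 3.35 with DIP and rose by 1.75 ± 0.19 in 4T1. The Deltex genes, some of whose products bind the intracellular domain of Notch, went different ways in 4T1 but not with DIP. With DIP Dtx1, Dtx3 (1.08 ± 0.21), Dtx3l (0.50 ± 0.16) and Dtx4 (0.67 ± 0.20) were called higher, and Dtx2 did not pass. In 4T1 against HC11 DOX, Dtx4 was called higher and Dtx1 and Dtx2 lower, while Dtx3 and Dtx3l did not pass. Dtx4 averaged 33.2 ± 1.70 CPM in 4T1, against 0.346 ± 0.112 CPM in HC11 DOX (log2 fold change 6.58 ± 0.18, edgeR adjusted p = 1.11e-16). Dtx1 rose with DIP, to 0.977 ± 0.556 CPM against 0.124 ± 0.0885 CPM in HC11 DOX (2.99 ± 0.40, edgeR adjusted p = 3.53e-06). In 4T1 Dtx1 was near the counting limit, at 0.0137 ± 0.0140 CPM.

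Of 18 genes of the nuclear complex and its co-repressors, 5 rose and 4 fell with DIP, and 4 rose and 11 fell in 4T1 against HC11 DOX. The share called with DIP was close to the 45.5% of all genes, and in 4T1 35.6% of all genes were called lower. The 4T1 counts were 1 and 13 by library totals, and 2 and 10 of 17 without HC11 DOX libraries 7 and 9. Rbpj, the DNA-binding partner of all Notch receptors, did not pass with DIP (-0.12, edgeR adjusted p = 0.546) and was slightly higher in 4T1 (0.42 ± 0.14, edgeR adjusted p = 0.00885, and 0.242 when scaled by library totals alone). The Mastermind co-activators went different ways with DIP, Maml1 up by 0.92 ± 0.19 and Maml3 down by 1.16, while Tle1, a Groucho co-repressor, rose by 1.08 ± 0.14. In 4T1 Maml2 (-2.11 ± 0.14) and Tle3 (-1.66 ± 0.10) were lower. Rbpjl, a relative of Rbpj, was lower too. It averaged 0.0165 ± 0.0171 CPM in 4T1, against 0.0892 ± 0.0293 CPM in HC11 DOX, close to the counting limit in 4T1.

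Of 7 other HES and HEY genes, 3 were tested in each comparison, with 1 higher and 1 lower with DIP and 1 higher in 4T1 against HC11 DOX (45.5% and 69.9% of all genes called). Without DIP libraries 8 and 10 the counts with DIP were 2 and 1, since Hes6 passed there (0.63, edgeR adjusted p = 6.79e-05) and not with all libraries (0.38 ± 0.27, adjusted p = 0.261). Hey2, with the paired RBPJ letters printed above, was low throughout, at 0.0334 ± 0.0171 CPM with DIP and 0.181 ± 0.0809 CPM in HC11 DOX (log2 fold change -2.39 ± 0.37, edgeR adjusted p = 1.77e-05). Hes7, also low, rose with DIP by 0.98 ± 0.29 and in 4T1 by 1.61 ± 0.31 on the log2 scale.

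**Figure D5:**
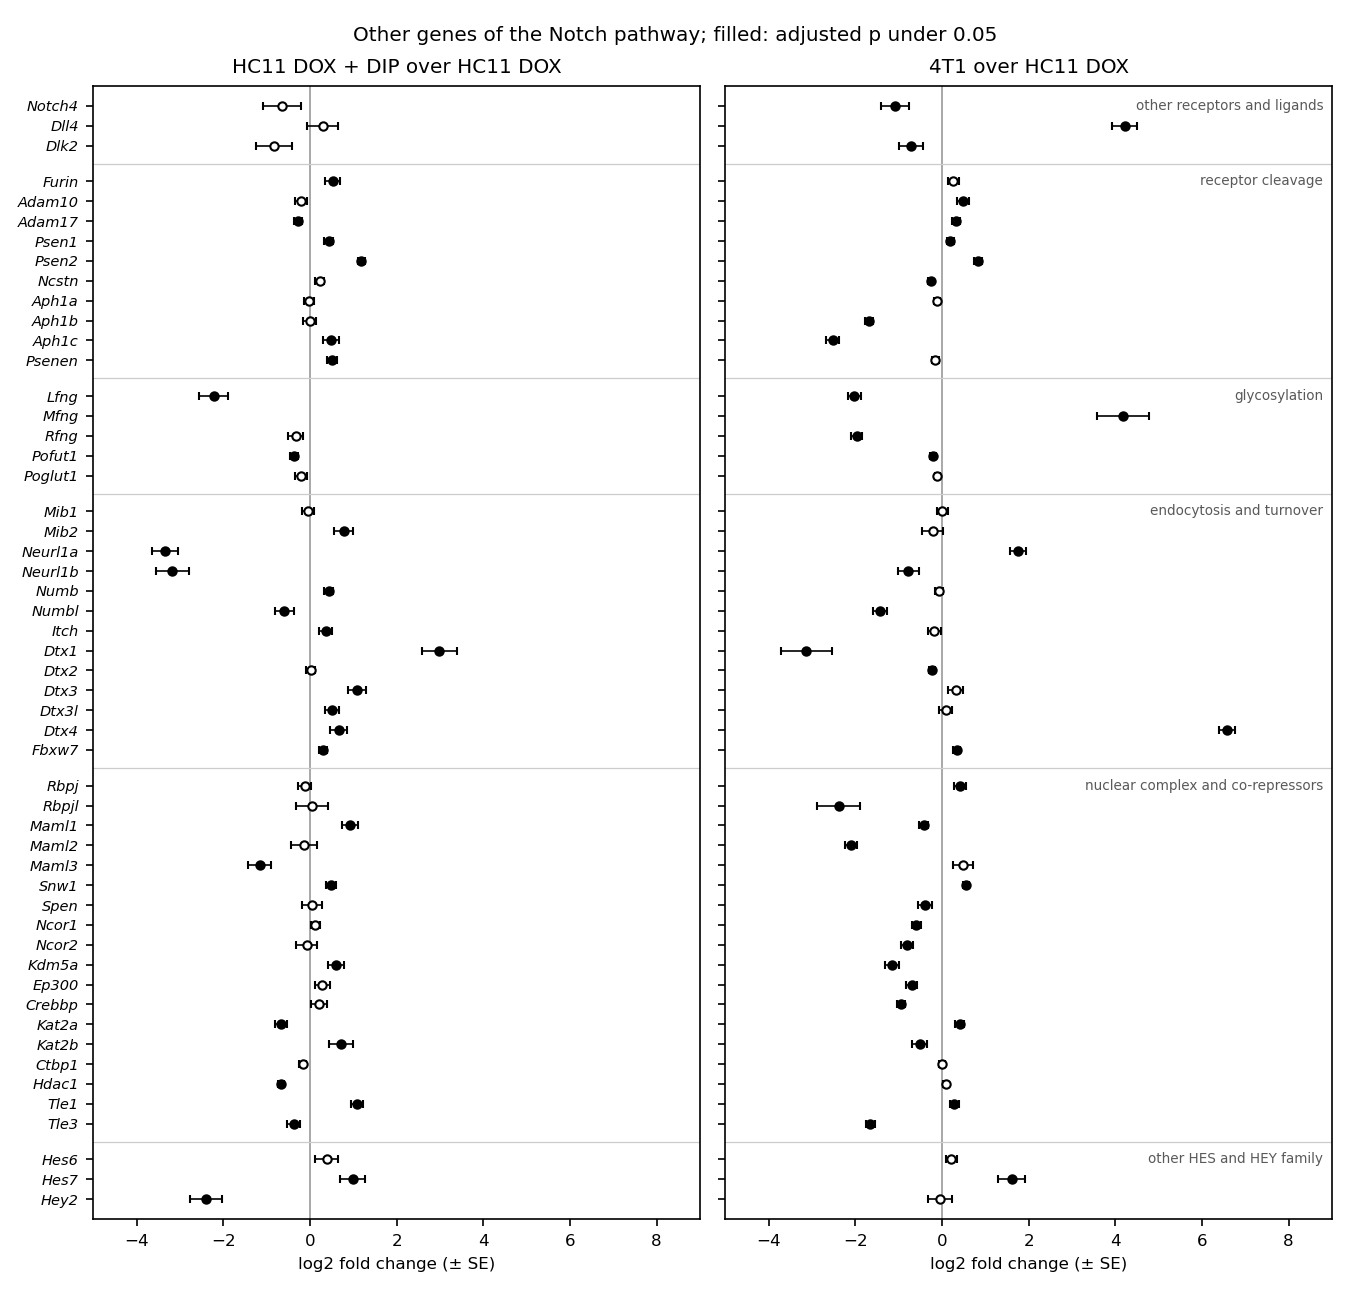
Log2 fold changes with standard errors of the other pathway genes tested, by role, with DIP in HC11 (left) and in 4T1 against HC11 DOX (right), filled at an edgeR adjusted p under 0.05. Lfng lies left of 0 in both panels, at -2.23 and -2.02, and Dtx4 lies farthest right, at 6.58 in 4T1.

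The genes most like a member were sought for the 6 members whose own log2 CPM averaged 2 or more, over all 28 libraries, by the Pearson correlation of log2 CPM after each group's mean was removed, among genes at or above the same level. These values are descriptions of deviations that libraries share, depth and composition included. Notch1 was nearest to Cnnm3, Rxra and Tsc2 (r = 0.96, 0.96 and 0.95), Notch2 to Numa1, Sec16a and Wasf2 (0.87, 0.85 and 0.84) and Jag1 to Srsf1, D1Ertd622e and Tmem209 (0.84, 0.83 and 0.80). Jag2 was near to Rflnb and Tpst1 (0.87 and 0.76), Dll1 to Hr, Dhrs4 and Srsf6 (0.87, 0.86 and 0.86) and Hes1 to Med11, Taf6l and Lysmd2 (0.80 for each). Notch3, Hey1, Nrarp and Heyl lay below that level and were left out. Without DIP libraries 8 and 10, 2 of the 3 nearest genes were the same for Jag2 (Rflnb and Tpst1), 1 for Notch2, Jag1 and Hes1, and 0 for Notch1 and Dll1.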

How the data were processed

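RNA was purified with TRIzol and rRNA-depleted libraries were made with a NEBNext Ultra II kit, per the labels' protocols. The authors deposited whole-number counts for each Ensembl gene, 1 file per library, made with fastp 0.23.2 and featureCounts 2.0.1 on build GRCm39, per the submitters' processing notes; aligner, annotation and strandedness are not given in these sources. The counts were not normalised by the authors as far as the values show. Libraries were grouped by the cell line and treatment labels and numbered within a group in series order, numbers that the labels do not give.

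Gene symbols (52073 identifiers), exon lengths and overlaps came from GENCODE vM21 (GRCm38), used for names and lengths because the builds differ. Each pair of groups was fitted with edgeR 4.0.16 (R 4.3.3) over all genes kept by filterByExpr, with TMM factors, robust quasi-likelihood tests and Benjamini-Hochberg adjustment over all genes tested; a call means an adjusted p under 0.05. CPM used TMM factors over all 28 libraries, log2 CPM a prior count of 2, and the SE is the log2 fold change over the square root of F. The procedure was tested on simulated data, drawn as independent libraries with few changed genes. That setting does not cover libraries alike in pairs or the large shares of genes called here. Alternatives used DESeq2 1.42.0, limma 3.58.1, other scalings, no filter, 1 fit of all groups and libraries left out. Genes named beside the members are up to 3 called genes per role and comparison with the largest change, the 3 most alike for each of 6 members, and cell type markers. Rbpj, the overlapping genes (Gm38287, Gm17276 and 0610009E02Rik), Hes6 in its alternative and the printed promoters were chosen after their values were seen. So were the Deltex genes Dtx2, Dtx3 and Dtx3l. A930024N18Rik was named for its annotated overlap alone. A marker, with the sum of its list, and a gene alike to a member are not reported here. The members, lists and alternatives were chosen with earlier results of these data known.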

Additional observations from a re-analysis of the deposited data

Results flagged for a closer look

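Jag1 in HC11 DOX plus DIP had 1 library far from the other 9: library 1 held 44.0 CPM and the next highest 12.2 CPM, a gap of 0.801 of the group's range. Heyl in HC11 DOX had 0.0137 CPM in library 2, from 2 counts, and 0 in the other 9 libraries. Of 28 pairs of a member and a group with any count, chance would put about 1 in 20 past such a limit.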

How the results depend on the processing

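No paired analysis was possible because the labels give no replicate numbers or cultures. Over 3 comparisons and 9 members, 698 of 720 recomputed log2 fold changes kept their direction and their side of the threshold. Hes1 with DIP, near 0, was at 0.05 without DIP libraries 8 and 10 and at 0.05 without HC11 DOX libraries 7 and 9 (a choice made after seeing the data), and between -0.07 and 0.04 on leaving out each library in turn. Notch2 with DIP passed in a fit of all 3 groups (-0.28, adjusted p = 0.0420) and ranged from -0.31 to -0.21 over single omissions. Notch3 with DIP missed the threshold by limma voom (-0.97) and without DIP libraries 8 and 10 (-1.07), and ranged from -1.43 to -0.99. Jag1 ranged from -1.05 to -0.39 with DIP and from 0.52 to 0.79 in 4T1 against HC11 DOX, where limma voom gave 0.81 and a call. In 4T1 against HC11 DOX plus DIP, Notch2 ranged from -0.41 to -0.28 and Hey1 was at -0.70 by limma voom. With the longest transcript as length, the shares of Notch1 and Notch2 were 40.0% and 59.9% in 4T1 and 64.3% and 34.0% in HC11 DOX. The cause was not tested. Scaling by library totals alone moved the median of all genes to -0.24 in 4T1 against HC11 DOX, from -0.01, and to -0.34 against HC11 DOX plus DIP, from -0.04. Called genes then split into 5964 higher and 10661 lower, against 8178 and 8510, and into 6723 and 11188, against 8665 and 9149. No member changed its call or direction with DESeq2 size factors, library totals, no filter or the DESeq2 test. Depth limits Heyl, Hey2, Mfng, Rbpjl, Dtx1 and, in 4T1, Notch3.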
